A study of Homo sapiens with 4 samples.

Results

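The genes described here are EPCAM, ST14, SPINT1, SPINT2 and PRSS8, a membrane adhesion molecule and the cell-surface proteases and inhibitors that act around it. All ATAC-seq regions whose gene name in the authors' deposited table equals 1 of these 5 symbols were taken, promoter and distal. ATAC-seq cuts open DNA with a transposase and counts the fragments per region, so a count reports how accessible a region is and not how much RNA or protein the gene makes. The rule found 15 regions of 58127, for 4 of the 5 genes: 6 for ST14, 4 for PRSS8, 3 for SPINT2 and 2 for EPCAM. SPINT1 had 0 regions under its own name, and 2 regions inside that gene carry the name of its antisense RNA.

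The cells were MCF10A, a non-tumorigenic human mammary epithelial line that grows as an immortal culture. Of the 4 libraries, 2 carry the label shG8d (SNHG8d knockdown by a short hairpin) and 2 the label shNC (control), with the letters A and B in each group. All share the MCF10A background, and no label gives a time, a passage or the number of cultures behind a pair. The p-values rest on the spread between the 2 libraries of a pair, moderated by limma toward a trend fitted over all regions. That spread may be technical. All 5 epithelial marker genes checked (CDH1, KRT5, KRT14, KRT8 and KRT18) had a region within 1 kb of the start site. The 3 blood markers had none, and of 3 fibroblast markers PDGFRA alone had one.

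EPCAM is a homophilic adhesion protein that also binds claudins and steadies them at the epithelial surface. ST14 encodes matriptase, a transmembrane serine protease, and PRSS8 encodes prostasin, a lipid-anchored serine protease that activates and is activated by matriptase. SPINT1 and SPINT2 encode HAI-1 and HAI-2, membrane-bound Kunitz inhibitors of both proteases. Matriptase can cleave EPCAM, and inherited loss of EPCAM or of SPINT2 causes diarrhoeal disease of the intestinal epithelium.

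The group labels change places within the table, and this bears on every direction below. Each column holds whole multiples of the value of 1 read. The 2 columns labelled shG8d have steps of 0.842 and 0.807 normalized counts per read in common regions, and in the specific regions those same steps belong to the columns labelled shNC. The other library of each letter has 1.21 and 1.17. Libraries are therefore called deeper (8124488 and 8111839 reads in regions) and shallower (4457248 and 4344212 reads). For the deeper pair, the 33913 common regions give the label shG8d and the 21459 shNC-specific regions give shNC. Which labels are right was not settled, so no direction is assigned to the knockdown. Of the 15 regions, 4 are common, 11 are shNC-specific and 0 are shG8d-specific. How the authors chose the specific regions is not given in the sources used here, and a choice made on these libraries would make p-values in that set depend on it.

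Accessibility differed between the pairs at 6 of the 15 regions and at 23.6% of all regions. All 6 were higher in the deeper pair. Estimates lay above 0 at 12 of the 15 regions, against 49.0% of all regions. By set, these were 4 of 4 common and 8 of 11 shNC-specific regions, against 41.9% and 66.5% of all regions of those sets. When libraries were scaled to equal totals, 10 of the 15 lay above 0, against 28.5% of all regions. Of the 15, 2 were called under that scaling. The 6 are 3 regions of ST14, 2 of PRSS8 and 1 of EPCAM. The test was limma's moderated test on log2(normalized count + 1) over all 58127 regions. P-values were adjusted by Benjamini-Hochberg, and a region is called here when its adjusted p is under 0.05. Of the 4 common regions, 3 were called higher, where 10.7% of all common regions were called higher and 15.0% lower. Of the 11 shNC-specific regions, 3 were called higher, where 13.2% of that set were called higher and 0.979% lower. The deeper pair is labelled shNC in that set, so these 3 calls lie in the direction of the set's name. Their p-values cannot be read apart from how the set was chosen. As deeper minus shallower, the median log2 difference came to 0.65 over the 4 common regions and −0.12 over all common regions. It was 0.47 over the 11 shNC-specific regions and 0.24 over all regions of that set. Regions of a gene lie close together and share their libraries, so these counts describe the axis and are not independent observations.

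Read by the table's own labels, the axis splits by region set. The called common regions of ST14 and PRSS8 were higher in libraries labelled shG8d, and the called shNC-specific regions of EPCAM, ST14 and PRSS8 were lower in libraries labelled shG8d. ST14 and PRSS8 each have called regions in both sets, so each of these genes carries both directions by label and a single direction by library. In the authors' deposited table the ST14 region 13323 bp upstream has a log2 fold change, shG8d over shNC, of 1.05, and the ST14 promoter has −0.96.

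**Figure D1:**
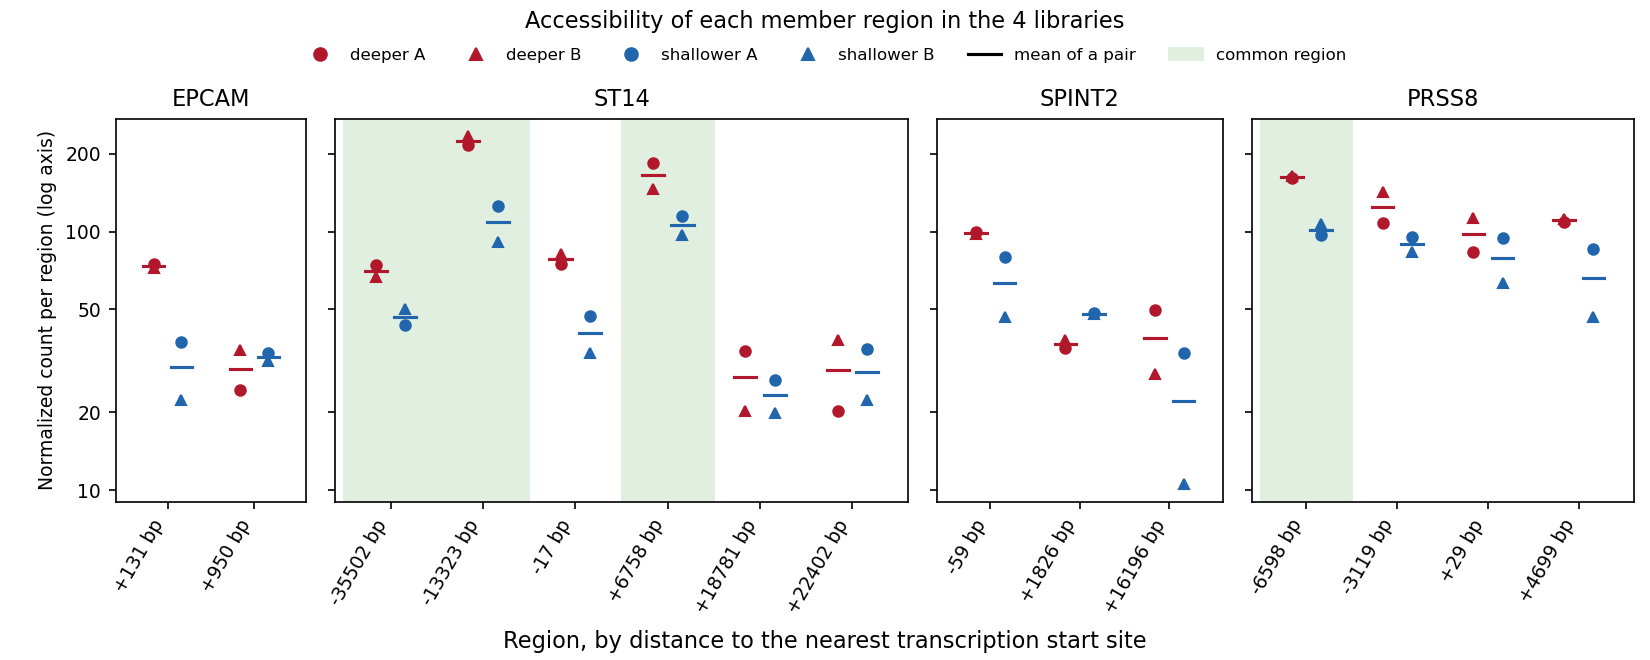
Normalized count per region on a log axis for every region of EPCAM, ST14, SPINT2 and PRSS8, ordered by distance to the nearest transcription start site, with a point per library and a bar at the mean of each pair. In the shaded common regions both deeper libraries lie above both shallower ones. The same holds at EPCAM +131 bp, at the promoters of ST14 and SPINT2, and at PRSS8 −3119 and +4699 bp. The pairs overlap at the PRSS8 promoter (+29 bp) and at introns of EPCAM (+950 bp), ST14 (+18781 and +22402 bp) and SPINT2 (+16196 bp). At SPINT2 +1826 bp both deeper libraries lie below both shallower ones.

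EPCAM, the adhesion molecule of the axis, had 2 regions on chromosome 2. The one at the start of the gene is annotated to the 5′ UTR in exon 1 of 9, 131 bp downstream of the start site (TSS), and is shNC-specific. The deeper libraries A and B had 74.9 and 72.6 normalized counts, from 89 and 90 reads, and the shallower libraries had 37.5 and 22.3, from 31 and 19 reads. Both deeper libraries stood above both shallower ones, and the shallower pair spread more. The pair means were 73.8 ± 1.6 and 29.9 ± 10.7 (SD, n = 2 each), a 2.50-fold difference on the log2(count + 1) scale (log2 difference 1.32, SE 0.308, limma adjusted p = 0.00526). It was the largest difference among the 15 regions and lay at the 96.5th percentile of differences in its set. Without the deeper library A the EPCAM difference was 1.30 and no longer passed (adjusted p = 0.0545), and over all 9 alternatives it ranged from 0.96 to 1.68, with adjusted p from 4.01e-06 to 0.0545.

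The second EPCAM region lies in intron 1 of 8, 950 bp downstream of the TSS, and is also shNC-specific. It had 24.4 and 34.7 normalized counts in the deeper libraries and 33.8 and 31.6 in the shallower ones, so the pairs overlapped. The log2 difference was −0.16 (95% interval −0.89 to 0.56, limma adjusted p = 0.771). The call at the 5′ UTR and its absence at the intron do not show that the regions differ from each other, which was not tested.

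ST14, the gene of matriptase, had the most regions, spread from 35502 bp upstream to 22402 bp downstream of its TSS on chromosome 11. The lowest adjusted p of the axis belonged to an intergenic common region 13323 bp upstream of the ST14 TSS. It had 216.3 and 234.0 normalized counts in the deeper libraries, from 257 and 290 reads, and 125.6 and 91.4 in the shallower libraries, from 104 and 78 reads. The pairs did not overlap. Means were 225.2 ± 12.5 and 108.5 ± 24.2 (SD, n = 2 each), and the log2 difference was 1.06 (SE 0.198, limma adjusted p = 0.00119). This was the only region of the 15 that passed under all 9 alternatives run, with log2 differences from 0.71 to 1.29 and adjusted p of at most 0.0201.

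The ST14 promoter region, 17 bp upstream of the TSS, is shNC-specific. The deeper libraries had 74.9 and 82.3 normalized counts and the shallower libraries 47.1 and 34.0, again without overlap. The log2 difference was 0.95 (SE 0.273, limma adjusted p = 0.0170), at a place where 29.7% of all shNC-specific promoters were called higher. The ST14 promoter missed the threshold without the deeper library A (log2 difference 1.02, adjusted p = 0.0903) and without the deeper library B (0.89, adjusted p = 0.139), with differences close to that of all 4 libraries. When libraries were scaled to equal totals only, the difference was 0.61 (adjusted p = 0.0965). Over all alternatives the adjusted p ran from 0.000516 to 0.139.

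A common region in intron 1 of 18 of ST14, 6758 bp downstream of the TSS, was also higher in the deeper pair. The deeper libraries had 185.1 and 146.1 normalized counts and the shallower ones 114.8 and 97.2, with no overlap between pairs. The log2 difference was 0.63 (SE 0.203, limma adjusted p = 0.0296), and in common introns 8.44% were called higher and 16.1% lower. This ST14 region missed the threshold at 0.46 without the deeper library A (adjusted p = 0.368), at 0.80 without the deeper library B (adjusted p = 0.0683) and at 0.28 with equal library totals (adjusted p = 0.307), within a range over alternatives of 0.00124 to 0.368.

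The other 3 ST14 regions did not pass. The farthest upstream, at 35502 bp, is a common region that lies in intron 7 of 16 of APLP2, the gene next to ST14 and itself the source of a Kunitz-domain protein. Its counts were 74.1 and 67.0 in the deeper libraries and 43.5 and 50.4 in the shallower ones, which do not overlap (log2 difference 0.58, limma adjusted p = 0.116, and 0.23 with equal library totals). The 2 shNC-specific regions further into intron 1 of ST14, at 18781 and 22402 bp, had between 19.9 and 37.9 normalized counts per library and overlapping pairs. Their log2 differences were 0.19 (95% interval −0.63 to 1.01) and −0.011 (−0.83 to 0.81), so at 17 to 47 reads per library a 1.5-fold change in either direction lies inside both intervals.

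PRSS8, the gene of prostasin, had 4 regions within 7 kb of its TSS on chromosome 16. The promoter region itself, 29 bp downstream of the TSS and shNC-specific, did not pass. It had 83.3 and 113.0 normalized counts in the deeper libraries and 94.2 and 63.3 in the shallower libraries, and the pairs overlapped (log2 difference 0.33, 95% interval −0.19 to 0.84, limma adjusted p = 0.361). Single libraries moved this PRSS8 value widely, to 0.61 without the shallower library A, where it passed (adjusted p = 0.0435), to 0.54 and 0.11 without the deeper libraries A and B, and to 0.042 without the shallower library B. With equal library totals it was −0.024, and over all alternatives the adjusted p ran from 0.0435 to 0.953.

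Both PRSS8 calls lay away from the promoter. The common region 6598 bp upstream lies in intron 10 of 14 of PRSS36, the neighbouring serine protease gene, which had 0 regions under its own name. The deeper libraries had 161.6 and 163.8 normalized counts and the shallower ones 96.6 and 106.6, with a tight spread in each pair. The log2 difference was 0.68 (SE 0.194, limma adjusted p = 0.0174). The shNC-specific region at the end of PRSS8, 4699 bp downstream of the TSS, had 109.4 and 112.2 in the deeper libraries and 85.8 and 46.9 in the shallower libraries (log2 difference 0.79, SE 0.261, limma adjusted p = 0.0337). Without the deeper library A or B the region 6598 bp upstream of PRSS8 missed the threshold at almost unaltered differences of 0.69 and 0.67 (adjusted p = 0.149 and 0.146). The region at its end did so too, at 0.81 and 0.78 (adjusted p = 0.141 and 0.146). With equal library totals the differences were 0.32 upstream and 0.45 at the end (adjusted p = 0.234 and 0.196). At the end of PRSS8 the difference was 0.37 without the shallower library B (adjusted p = 0.243), and a fit within the specific sets alone gave an adjusted p of 0.0892. Over all alternatives the adjusted p ran from 0.00258 to 0.234 upstream and from 1.43e-05 to 0.243 at the end.

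The fourth PRSS8 region, 3119 bp upstream of the TSS and shNC-specific, is annotated to the end of PRSS36. It had 107.7 and 142.0 normalized counts in the deeper libraries and 95.4 and 83.2 in the shallower ones. The pairs did not overlap, but limma called no difference (log2 difference 0.47, SE 0.217, adjusted p = 0.124). This PRSS8 region passed without the shallower library A (0.57, adjusted p = 0.0342), while the difference was 0.27 without the deeper library B and 0.12 with equal library totals, within a range of adjusted p from 0.0342 to 0.720.

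**Figure D2:**
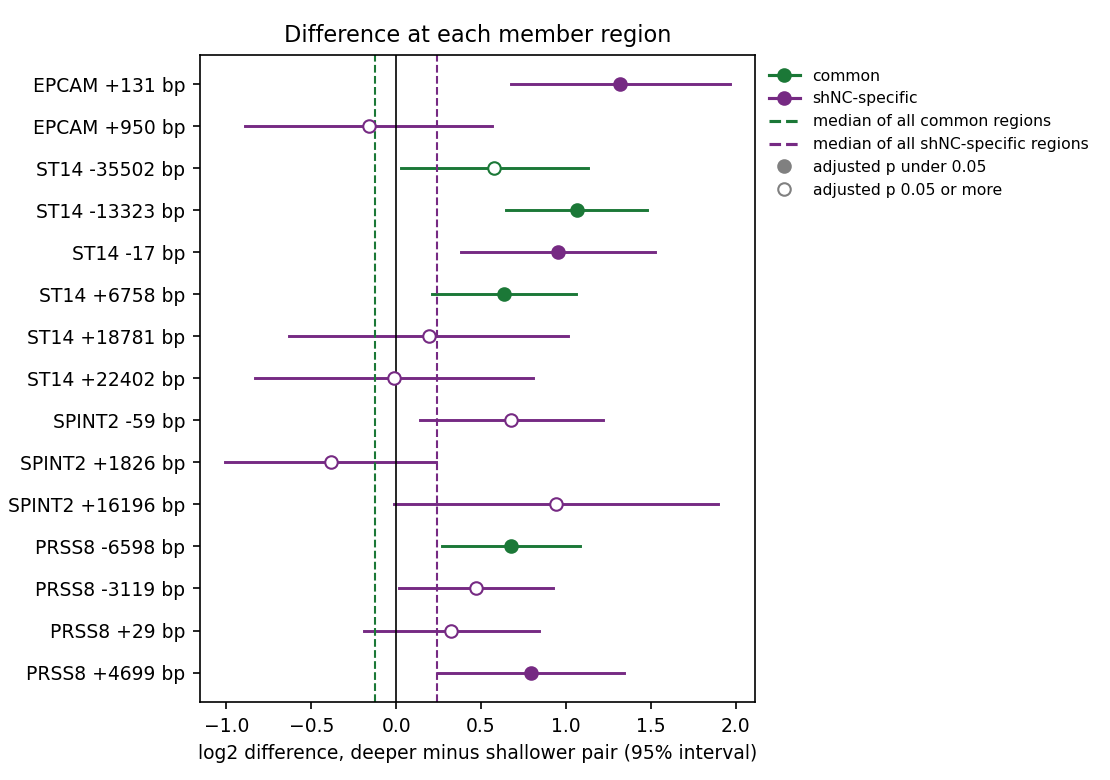
Log2 difference, deeper minus shallower pair, with its 95% interval for each of the 15 regions, coloured by region set, filled where limma's adjusted p is under 0.05, with dashed lines at the median of all regions of each set. The 4 common regions lie between 0.58 and 1.06, to the right of their set's median of −0.12, and the 11 shNC-specific regions spread from −0.39 to 1.32 around theirs of 0.24.

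The inhibitor genes gave 0 calls under their own names with limma, from the 3 regions of SPINT2 alone. In their set 13.2% of all regions were called higher and 0.979% lower. A contrast between inhibitors and proteases was not tested. Of the 3 regions, 1 had an unadjusted p under 0.05. SPINT2, which encodes HAI-2, had 3 shNC-specific regions on chromosome 19. Its promoter region, 59 bp upstream of the TSS, had 99.3 and 97.6 normalized counts in the deeper libraries and 79.7 and 46.9 in the shallower libraries, without overlap. The difference there was 0.68 on the log2 scale (SE 0.259, limma adjusted p = 0.0635). It passed with the letter as a replicate block (0.0339) and without the shallower library A (0.000404, log2 difference 1.06 for SPINT2). Without the shallower library B the SPINT2 promoter difference was 0.30 (adjusted p = 0.378), and with equal library totals it was 0.33 (adjusted p = 0.346). Over all alternatives the adjusted p ran from 0.000404 to 0.378.

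In intron 1 of 5 of SPINT2 the 2 other regions pointed opposite ways. At 1826 bp downstream of the TSS the deeper libraries had 35.3 and 37.9 normalized counts and the shallower ones 48.3 and 48.0, the only region of the 15 with both deeper libraries below both shallower ones (log2 difference −0.39, 95% interval −1.01 to 0.24, limma adjusted p = 0.367). At 16196 bp the values were 49.7 and 28.2 against 33.8 and 10.5, the last from 9 reads. There the log2 difference of 0.94 had the widest error of the 15 (SE 0.457, limma adjusted p = 0.142), and it went from 0.14 without the shallower library B to 1.74 without the shallower library A.

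SPINT1, which encodes HAI-1, is represented only through its antisense gene SPINT1-AS1, whose start site lies nearer to the 2 regions inside SPINT1 on chromosome 15. Reads from the 2 strands cannot be told apart in ATAC-seq, and the symbol follows the nearer start site alone. The common region in intron 1 of 9 of SPINT1 had 156.5 and 161.4 normalized counts in the deeper libraries and 158.3 and 145.3 in the shallower libraries. The pairs overlapped, and the log2 difference was 0.068 (95% interval −0.32 to 0.45, limma adjusted p = 0.823), which leaves out a 1.5-fold change. The shNC-specific region at the end of a SPINT1 transcript had 58.1 and 68.6 normalized counts in the deeper libraries and 32.6 and 30.5 in the shallower ones (log2 difference 0.98, SE 0.292, limma adjusted p = 0.0210). SPINT2 likewise has a common region in its last intron, 5 of 5, that carries the name C19orf33, with 136.3 and 133.2 normalized counts against 89.4 and 93.7 (log2 difference 0.55, SE 0.202, limma adjusted p = 0.0534). These 3 regions fall outside the rule and were singled out after their values were seen.

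**Figure D3:**
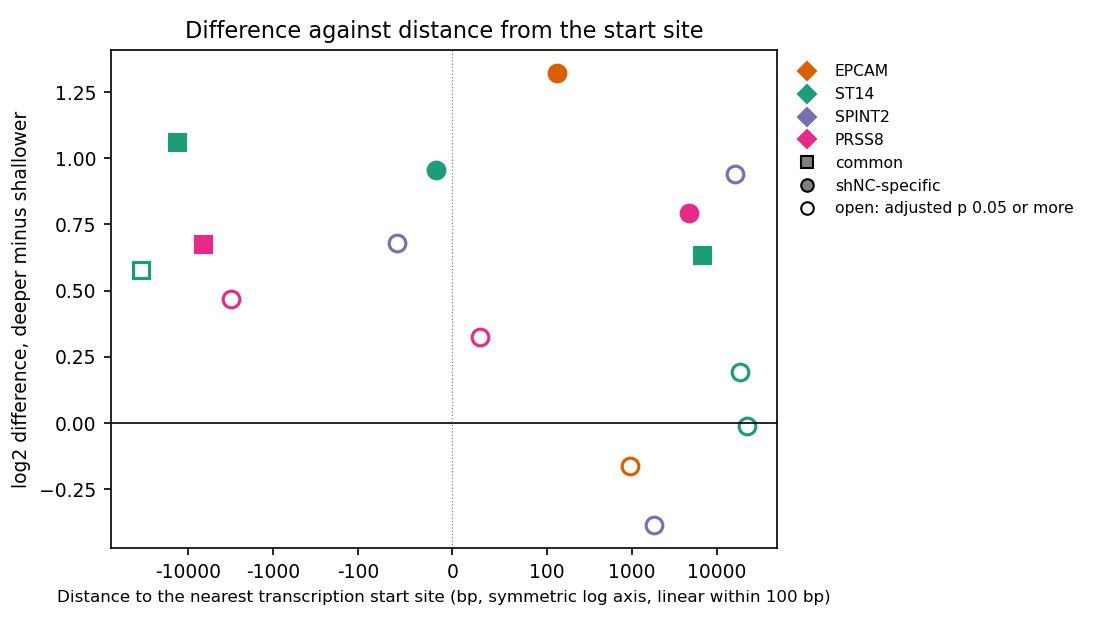
Log2 difference, deeper minus shallower pair, against signed distance to the nearest transcription start site on a symmetric log axis, coloured by gene, with squares for common and circles for shNC-specific regions and filled symbols where the adjusted p is under 0.05. The 6 regions upstream of a start site and the 2 regions up to 131 bp downstream all lie above 0. The 3 values below 0, at 950, 1826 and 22402 bp downstream, are shNC-specific introns that were not called. Of all regions, 41.9% of common and 66.5% of shNC-specific ones lie above 0. Shares by position were not computed over all regions.

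Position relative to the TSS was not used by the rule. The 4 regions nearest a start site, within 131 bp, were those of EPCAM, ST14, SPINT2 and PRSS8, and all 4 are shNC-specific with differences of 1.32, 0.95, 0.68 and 0.33. None of the 4 common regions is a promoter: 3 lie in introns, 2 of them in the neighbouring genes APLP2 and PRSS36, and 1 is intergenic. Of the 5 shNC-specific introns 0 passed limma's test and 0 had an unadjusted p under 0.05, where 11.3% of all shNC-specific introns were called in either direction. The pairs did not overlap at 6 of the 11 shNC-specific regions, 5 of them higher in the deeper pair, where this held for 53.4% of all regions of that set and 39.8% were also higher. In the common set they did not overlap at 4 of 4 regions, all higher in the deeper pair, where 67.1% of all common regions did not overlap and 27.1% were also higher.

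Promoters with the most similar profile over the 4 libraries were sought in the same region set, by the Euclidean distance between centred log2 values among 2793 promoters. Nearest to the EPCAM 5′ UTR region were those of MRPL20, MYO5B and GNB1L, at distances of 0.078, 0.085 and 0.091. Nearest to the ST14 promoter were NET1, PLPPR2 and MAPK9, to that of SPINT2 LIMK2, RHPN1 and CPNE7, and to that of PRSS8 BUB1, SEPTIN9 and LOC105369340. With only 4 libraries many promoters come this close: 44 lay within 0.2 of EPCAM, 90 of ST14, 64 of SPINT2 and 55 of PRSS8.

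Genes next to the axis did not move as 1 block. Of the nearest protein-coding genes by RefSeq order, 9 were examined, with 22 regions, of which 4 were called higher and 3 lower in the deeper pair, 31.8% in all against 23.6% of all regions. Next to ST14, 2 of the 5 APLP2 regions were called, both higher. At the APLP2 promoter the values were 162.4 ± 24.9 against 87.1 ± 22.1 normalized counts (common, SD, n = 2 each, log2 difference 0.91). The other was an intergenic region 27636 bp upstream (shNC-specific, 1.64). The remaining APLP2 regions, all common, lay below 0 and were not called (−0.26, −0.56 and −0.66). The region of ZBTB44 on the other side of ST14 was not called (0.16). Next to EPCAM, a promoter region of CALM2, a calmodulin gene, was lower (common, 903 bp upstream, log2 difference −0.91), and a second one 93 bp downstream was not called (shNC-specific, −0.12, limma adjusted p = 0.806). The YIF1B promoter beyond SPINT2 was higher (shNC-specific, 0.85), and both KAT8 regions beside PRSS8 were not called (0.25 and −0.27). An intergenic region of PPP1R14A on the other side of SPINT2 was lower (common, −0.92). RHOV, beyond SPINT1, had 1 intergenic region higher and 1 lower (both common, 1.04 and −0.82).

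Other genes of pericellular proteolysis and EPCAM signalling were taken as 5 lists of 76 genes, of which 65 had 273 regions. Of these regions 36 were called higher and 33 lower in the deeper pair, 25.3% in all, near the 23.6% of all regions. In common regions 24 of 173 were higher and 25 lower, in shNC-specific regions 12 of 92 were higher and 2 lower, and in shG8d-specific regions 0 of 8 were higher and 6 lower, where 70.0% of that set were called in either direction.

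Serine proteases related to matriptase and prostasin had 3 regions called higher and 3 lower, of 29. The promoter of KLK6, a kallikrein, was higher (shNC-specific, 67.3 and 86.3 against 37.5 and 38.7 normalized counts, log2 difference 0.98, limma adjusted p = 0.0144). An intron of TMPRSS11E, a transmembrane serine protease like matriptase, was lower (common, 55.5 and 43.6 against 116.0 and 99.6, log2 difference −1.11, limma adjusted p = 0.00360). Of 66 regions of protease inhibitors, 4 were higher and 11 lower, with a median log2 difference of −0.26. An intergenic region 27636 bp upstream of APLP2 led the higher ones (shNC-specific, 1.64) and is also counted above among the genes next to ST14. A region nearest SERPINC1, the antithrombin gene, but inside RC3H1 led the lower (shG8d-specific, −1.46). Its difference lay at the 27.3rd percentile of that set, where 70.0% of regions were called.

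Substrates and receptors of these proteases had 14 of 57 regions higher and 5 lower. In common regions alone, where 10.7% of all regions were called higher and 15.0% lower, 11 of 32 were higher and 2 lower for this list and 3 of 45 higher and 9 lower for the inhibitors. The 32 regions come from 10 genes and the 45 from 15, so they are not independent observations. The difference between the lists was not tested. The other lists had 1 of 15 higher and 3 lower for serine proteases, 4 of 39 and 5 for EPCAM partners, and 5 of 42 and 6 for transcription factors. The promoter of MST1R, the receptor for macrophage-stimulating protein, had 127.1 and 138.0 normalized counts in the deeper libraries and 56.8 and 25.8 in the shallower ones (shNC-specific, log2 difference 1.76, SE 0.296, limma adjusted p = 0.000538). A region in intron 1 of MET, the receptor for hepatocyte growth factor, was lower, at 14.3 and 29.1 against 50.7 and 60.9 (shG8d-specific, −1.40, limma adjusted p = 0.00995). Partners of EPCAM and the enzymes that cleave it had 8 of 63 regions higher and 6 lower. The CTNNB1 promoter, that of beta-catenin, was higher (shNC-specific, 1.26), and an intergenic region 72296 bp upstream of FHL2, whose product binds the cleaved EPCAM tail, was lower (shG8d-specific, −1.40). The MET and FHL2 differences lay at the 32.2nd and 32.1st percentiles of the shG8d-specific set, where 70.0% of regions were called. Epithelial transcription factors and their opponents had 7 of 58 regions higher and 8 lower. An intergenic region 281950 bp downstream of the start site of ZEB1, a repressor of epithelial genes, was higher (common, 1.23). A region in intron 8 of GRHL2, an activator of epithelial genes, was lower (common, −1.25). Intergenic regions nearest ELF3, 12650 and 24317 bp downstream, were also called higher (common, 0.75 and 1.14). Whether the direction went with the role of a factor was not tested.

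**Figure D4:**
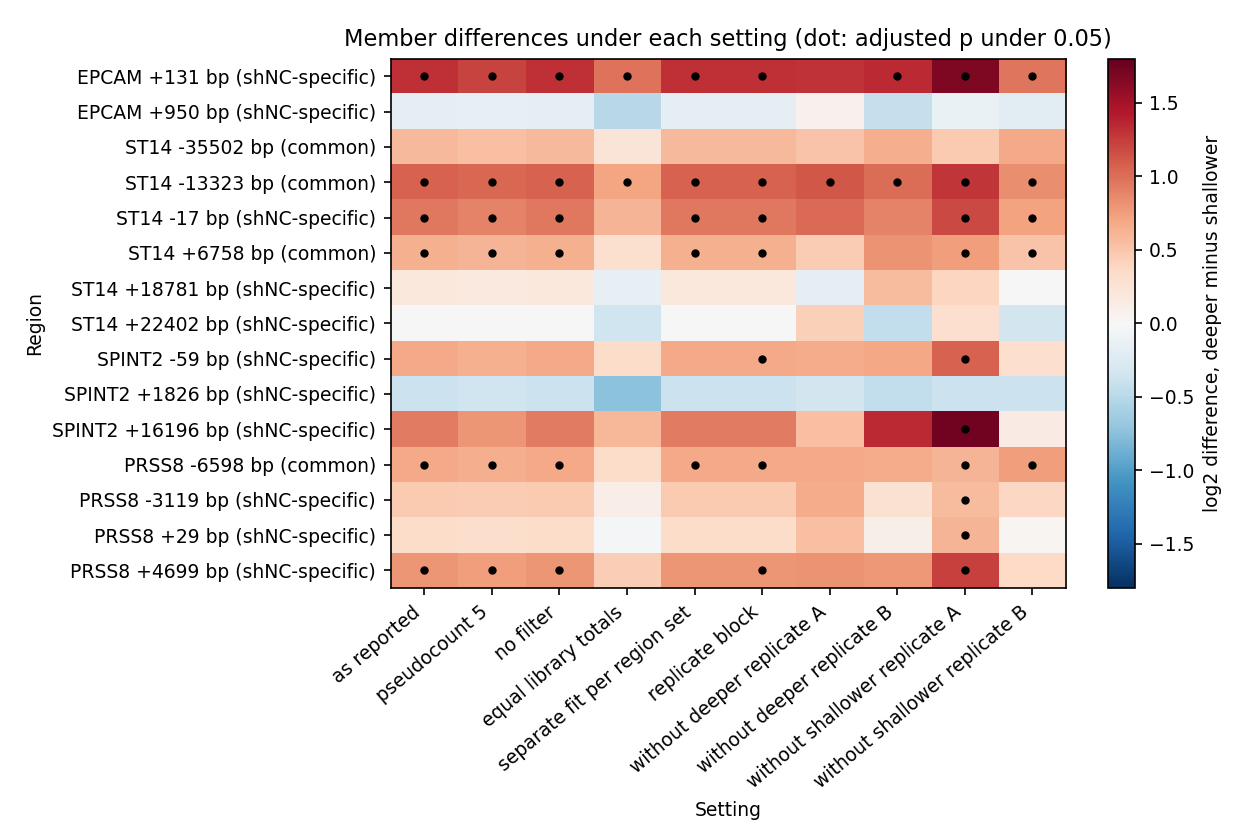
Log2 difference, deeper minus shallower pair, of the 15 regions (rows) as reported and under 9 alternative settings (columns), with a dot where limma's adjusted p is under 0.05. The ST14 region at −13323 bp has a dot in every column and EPCAM at +131 bp in every column but the fit without the deeper library A, while 10 regions have a dot without the shallower library A and 1 without the deeper library A.

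The number of called regions depended on single libraries. It was 6 with all 4 libraries, 1 and 2 without the deeper libraries A and B, and 10 and 5 without the shallower libraries A and B. Over all 58127 regions the calls were 13697, 4629, 6210, 19114 and 13706 in the same order. Scaling libraries to equal totals alone shifted the median of all regions by −0.35, and 2 of the 15 regions, those of EPCAM and ST14 at +131 and −13323 bp, were called higher and none lower. Under that scaling 4.01% of common regions were called higher and 36.6% lower, and 5.69% of shNC-specific regions higher and 6.32% lower.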

How the data were processed

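Chromatin accessibility was measured in 4 ATAC-seq libraries of MCF10A cells. CASAVA 1.4 and the build hg19 are named per the submitters' processing notes. Which aligner, peak caller and counter were used is not given in the sources used here. Per the file headers, the deposited table gives per region a log10 normalized value for each library, the authors' log2 fold change and unadjusted p-value, an annotation, a distance to a TSS and a gene symbol. Raising 10 to the deposited log10 values gave whole multiples of 1 step per library for 100% of values, within 0.05 reads, and the steps gave the reads and the library names used here. A count of 0 allows up to 3 reads, or 2.42 to 3.62 normalized counts, for counting error only.

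limma 3.58.1 in R 4.3.3 was fitted, with a trend of variance on mean, to log2(normalized count + 1), deeper minus shallower. The pseudocount of 1 understates changes of low regions. A minimum of 10 normalized counts in 2 or more libraries removed 0 regions, so the alternative with no filter is the same fit. On simulated reads for 58127 regions the fit recovered 37% of 100 regions changed 2-fold and 98% of 100 changed 4-fold. No other region was changed, and the dispersion was the same for all regions. There 137 regions were called, against 13697 in the data, so the adjusted threshold was stricter in the simulation. These shares are therefore not the sensitivity at the regions described here. Within a pair, reads differed by more than sampling noise (chi-square per region 2.09 and 2.68), which does not show that the libraries come from separate cultures. All 4 libraries were kept. Gene hosts of annotated transcripts, and symbols turned into dates, were read from RefSeq (GRCh38.p14, names only).

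The members, lists and tests were chosen with earlier results of these data known. All regions of the 5 genes are described. Of each list, the called region with the largest difference in each direction is named, and regions of ELF3 were added after their values were seen. 1 neighbouring gene is not reported here. Similar promoters are the nearest 3 per gene. Region starts and ends were not used, so levels are not compared between regions. Of the 5 genes, SPINT1 matched the RefSeq promoter table used (EPCAM, ST14, SPINT2 and PRSS8 did not). SPINT1 had 0 regions under its own name, so no sequence is shown.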

Additional observations from a re-analysis of the deposited data

How the results depend on the processing

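Of 135 values (15 regions under 9 alternatives), 108 kept their direction and their side of the threshold, 15 lost the call, 5 gained one and 7 changed sign, none of the last at a called region. The fit with no filter repeats the reported fit, because the filter removed 0 regions, so its 15 values could not move. With equal library totals the signs turned at ST14 +18781 bp (−0.15) and PRSS8 +29 bp (−0.024). Without the deeper library A they turned at EPCAM +950 bp (0.083), ST14 +18781 bp (−0.18) and ST14 +22402 bp (0.43). They also turned at ST14 +22402 bp without the shallower library A (0.30) and at ST14 +18781 bp without the shallower library B (−0.0083). Leave-out ranges for the regions whose sign turned were −0.41 to 0.083 for EPCAM +950 bp, −0.18 to 0.56 for ST14 +18781 bp, −0.45 to 0.43 for ST14 +22402 bp and 0.042 to 0.61 for PRSS8 +29 bp.

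Equal library totals gave 2580 regions called higher in place of 6477, 2 of the 15 regions (1 common and 1 specific) and 109 regions of the related lists in place of 69. Leaving out 1 library at a time gave 4629 to 19114 calls over all regions, 2044 to 9738 called higher, 1 to 10 of the 15 regions, 1 to 3 of the common and 0 to 7 of the specific ones, and 24 to 95 in the related lists. The cause was not tested. In these fits the lone library is assumed to vary like the complete pair. With the letter as a replicate block, 7 of the 15 regions and 15308 regions in all were called. The added call was the SPINT2 promoter. The letters share no stated origin, and the A minus B deviations of the pairs correlated at −0.0039 over regions, so the letters were not taken as pairs. A pseudocount of 5, no filter, and separate fits per region set gave 6, 6 and 5 calls. Depth limits the low regions most, such as SPINT2 +16196 bp at 9 to 59 reads.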
